A study of Mus musculus with 6 samples.

Results

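The genes of fatty acid oxidation were compared between organoids of the columnar stomach and organoids of the squamous esophagus of the mouse. The set holds 30 genes of 34298 gene names on the array and was defined by name: the carnitine shuttle, the acyl-CoA dehydrogenases and later enzymes of the oxidation spiral in mitochondria, 3 peroxisomal enzymes, acyl-CoA synthetases with a thioesterase, and the regulators Ppara and Pdk4. All 30 were on the array, and each was read from its brightest probe over all arrays. No enzyme that makes ketone bodies is among the 30, so ketone body genes were read from a separate list of 11.

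RNA came from passage 0 organoids of 3 mice, numbered 1, 2 and 4, each of which gave a stomach and an esophagus culture, so each group held 3 arrays. The titles of all 6 arrays carry the word Control, and the labels name no treatment. The methods of the study name wild-type C57BL/6 females without tying them to these arrays, and no age is given with the arrays. Organoids were harvested on day 8, apart from those of the stomach of mouse 4 on day 7. The labels refer to the study's culture methods without giving the medium of each array, and the study also grew esophageal organoids with and without WNT3A and R-spondin1. In those methods stomach organoids were grown from corpus glands in medium with WNT3A- and R-spondin1-conditioned medium and gastrin, whereas esophageal organoids were grown from dissociated cells in medium with forskolin and without those 3 additions. Both media held B27, N2, EGF, noggin, FGF-10, N-acetyl-L-cysteine, nicotinamide, a TGF-β receptor kinase inhibitor and a ROCK inhibitor. Under those protocols, tissue and medium cannot be told apart in these arrays.

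Fatty acids are activated to acyl-CoA by synthetases at membranes and enter mitochondria as carnitine esters, a step set by CPT1. Each turn of the spiral then dehydrogenates, hydrates, dehydrogenates again and cleaves the chain, and double bonds of unsaturated chains need auxiliary isomerases and a reductase. Very long and branched chains are shortened in peroxisomes. PPAR nuclear receptors activate many of these genes, and the liver turns surplus acetyl-CoA into ketone bodies.

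The arrays carried the epithelia that their labels name. All 13 gastric columnar markers were higher in the stomach arrays and 9 of 10 squamous markers were higher in the esophagus arrays. The exception was the brightest Trp63 probe, which was higher in the stomach. The study described its esophageal organoids as positive for P63 protein. On each array, 45.5% to 51.1% of spots were well above background and none was saturated. Of the 30 members, 27 were well above background on all 6 arrays, Pdk4 and Acot2 on some, and Crat, the mitochondrial carnitine acetyltransferase, on none. The esophagus array of mouse 4 was the only array on its slide. These are bulk cultures, in which fewer cells of a type and less RNA per cell cannot be told apart.

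The 30 members were higher in the stomach organoids or did not pass the test, and none of them was higher in the esophageal organoids. In limma's test across 55681 probes, 10 of the 30 members were higher in the stomach (Benjamini-Hochberg adjusted p under 0.05), against 6.22% of all probes. None was higher in the esophagus, against 5.94% of all probes, and none of the 30 reached an unadjusted p under 0.05 in that direction. The differences of the 10 ran from 1.74-fold for Cpt2, which turns acylcarnitines back into acyl-CoA inside mitochondria, to 8.07-fold for Eci1, an isomerase of unsaturated chains. Among brightest gene probes well above background on all 6 arrays, 10.6% were called with the stomach higher and 11.1% with the esophagus higher.

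Among the 20 members that did not pass, 18 had estimates in the same direction. The difference, esophagus minus stomach on the log2 scale, was below 0 for 28 of 30 members, with a median of -0.54 over the members and 0.02 over all probes. Within single mice, the median was -0.70 in mouse 1, -0.52 in mouse 2 and -0.55 in mouse 4. All 3 stomach values lay above all 3 esophagus values for 16 members, against 13.4% of all probes, and no member had the reverse order, against 15.2%. By the threshold of the study's methods, an unadjusted p under 0.05 with a change over 1.5-fold, 14 members were higher in the stomach, against 8.85% of all probes, and none in the esophagus, against 9.28%. The shares for order and for this threshold are over all probes, dim ones included, and were not computed for bright gene probes alone.

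The processing changed which of the smaller differences passed. Decr1, Eci1, Ech1, Ehhadh and Acaa1b were called under the main setting and all 13 distinct alternatives that refitted the members. When each array's processed signal from the scanner software was divided by its 75th percentile, the count fell to 5, with Cpt1a, Cpt2, Acadm, Acadl and Acaa2 no longer called, and 24 of 30 members were lower in the esophagus. That scaling set the median of all probes at 0.19, so differences near that size have no settled direction. Without the stomach array of mouse 1 the count was 6.

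**Figure D1:**
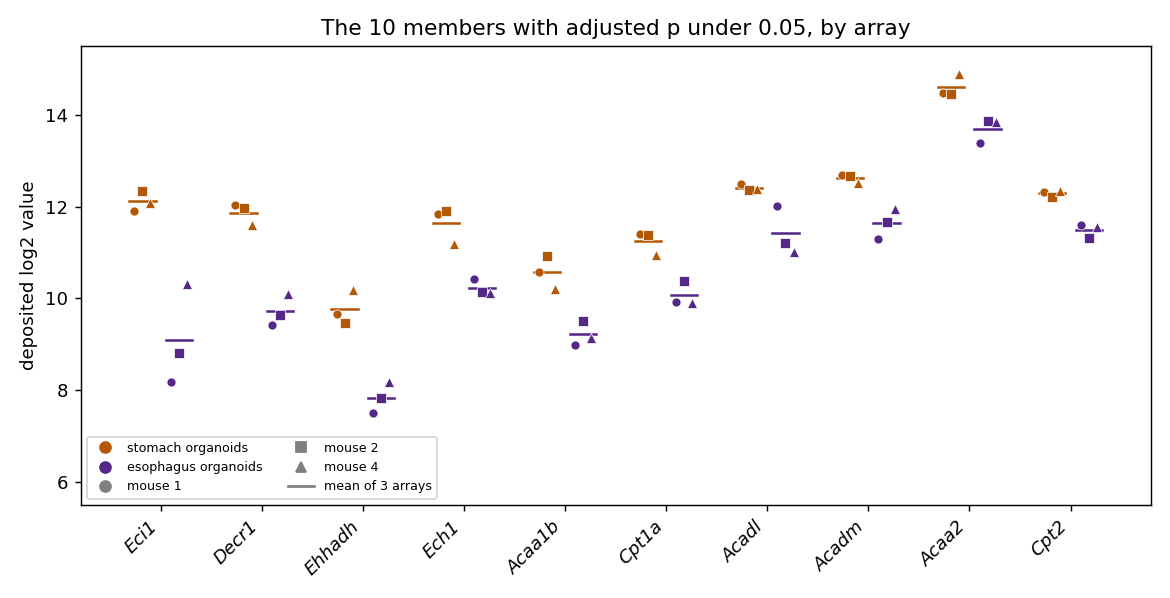
Deposited log2 values (y axis) of the 10 members with an adjusted p under 0.05, in order of the difference, for 3 stomach arrays (orange) and 3 esophagus arrays (purple), with the mouse shown by the symbol and the group mean by a line. Every stomach value lies above every esophagus value of the same gene, and the esophagus value of Eci1 in mouse 4 (10.32) lies above those of mice 1 and 2.

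The region before the transcription start is shown for 6 members, chosen because Cpt1a gates entry into mitochondria, Eci1, Ech1 and Ehhadh had large differences, and Acaa1b and Acaa1a are neighbouring copies of which only Acaa1b was called. Sequences are the 250 bases upstream of the start in RefSeq (GRCm38.p6), read 5′ to 3′ along the gene. Capitals mark GGGCGG, the GC box bound by SP1, or its reverse complement. The windows lie at chr19:3323051-3323300, plus strand (Cpt1a), chr17:24426433-24426682, plus strand (Eci1), chr7:28825088-28825337, plus strand (Ech1), chr16:21787835-21788084, minus strand (Ehhadh), chr9:119157094-119157343, minus strand (Acaa1b) and chr9:119341044-119341293, plus strand (Acaa1a).
Cpt1a: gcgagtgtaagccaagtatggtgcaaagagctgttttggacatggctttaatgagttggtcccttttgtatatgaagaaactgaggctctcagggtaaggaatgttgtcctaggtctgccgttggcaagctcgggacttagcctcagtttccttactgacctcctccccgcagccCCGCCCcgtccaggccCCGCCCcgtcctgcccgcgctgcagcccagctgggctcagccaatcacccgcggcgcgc
Eci1: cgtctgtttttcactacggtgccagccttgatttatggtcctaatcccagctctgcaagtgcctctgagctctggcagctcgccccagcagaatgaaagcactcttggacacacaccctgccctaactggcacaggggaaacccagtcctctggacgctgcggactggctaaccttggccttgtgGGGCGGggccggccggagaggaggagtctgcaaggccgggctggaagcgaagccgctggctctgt
Ech1: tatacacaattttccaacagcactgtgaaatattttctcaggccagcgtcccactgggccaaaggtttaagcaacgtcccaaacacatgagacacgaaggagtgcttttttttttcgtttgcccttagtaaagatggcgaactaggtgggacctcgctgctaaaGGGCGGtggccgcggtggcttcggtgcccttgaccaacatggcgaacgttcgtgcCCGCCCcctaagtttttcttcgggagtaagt
Ehhadh: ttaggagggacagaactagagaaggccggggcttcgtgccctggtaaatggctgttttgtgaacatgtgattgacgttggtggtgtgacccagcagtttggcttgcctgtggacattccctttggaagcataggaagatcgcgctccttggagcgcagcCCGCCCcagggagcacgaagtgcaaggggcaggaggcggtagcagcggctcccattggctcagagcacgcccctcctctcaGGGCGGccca
Acaa1b: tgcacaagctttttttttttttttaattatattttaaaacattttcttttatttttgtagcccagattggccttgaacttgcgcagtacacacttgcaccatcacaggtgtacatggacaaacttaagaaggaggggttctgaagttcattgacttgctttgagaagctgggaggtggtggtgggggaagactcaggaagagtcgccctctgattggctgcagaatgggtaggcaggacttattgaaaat
Acaa1a: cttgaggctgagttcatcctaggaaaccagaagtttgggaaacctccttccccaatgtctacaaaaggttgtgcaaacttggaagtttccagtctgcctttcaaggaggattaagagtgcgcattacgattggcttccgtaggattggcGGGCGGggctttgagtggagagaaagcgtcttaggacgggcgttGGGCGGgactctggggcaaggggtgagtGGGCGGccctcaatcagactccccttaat

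Cpt1a, Ech1 and Ehhadh each carried 2 GC boxes, Eci1 carried 1, Acaa1a carried 3 and Acaa1b carried none. Over the table, 27 of 30 members were matched by symbol, in 28 windows, and Acaa2, Crat and Decr1 were not. GGGCGG, searched on both strands, lay in 18 of the 28 windows (64.3%) and in 32.7% of all 32851 windows. The windows of the members were also richer in G and C, with a median of 58.8% against 52.4%. The nuclear receptor core AGGTCA was found upstream of Cpt1a, Acadm, Echs1 and Acadvl, 4 of 28 windows (14.3%, against 14.0% of all windows).

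The direct repeat AGGTCANAGGTCA, the form that PPAR and RXR bind as a pair, lay in none of the 28 windows and in 0.0335% of all windows. TCAAGGTCA, the extended site of estrogen-related receptors, which contains AGGTCA, lay in none of the 28 and in 0.387% of all. Exact matches to either are so rare over all windows that finding none in 28 does not tell whether the members carry such sites. CCAAT lay in 13 of 28 windows (46.4%, against 33.8% of all). The cyclic AMP response core TGACGT lay upstream of Ehhadh and Acsl4, 2 of 28 windows (7.14%, against 6.47% of all). All were searched on both strands, and a match is a run of letters, not a site shown to be bound.

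None of the 4 genes of acyl-CoA activation and release passed the test. Acsl5, a long-chain acyl-CoA synthetase of the outer mitochondrial membrane and endoplasmic reticulum, had values of 12.86, 12.78 and 13.74 in the stomach arrays of mice 1, 2 and 4 and 11.77, 12.01 and 12.55 in the esophagus arrays. No esophagus value reached a stomach value, and the difference was -1.02 (SE 0.31, adjusted p = 0.077). It was called under 3 of 13 distinct alternatives, at an adjusted p of 0.017 with the mouse as a replicate block, 0.046 with trended and robust variances and 0.048 without the esophagus array of mouse 4. Under the other 10 the adjusted p was 0.052 to 0.285, the highest at the 75th percentile scaling (-0.79), and the difference was as small as -0.71 without the stomach array of mouse 4. Acsl1, the synthetase that feeds oxidation in liver and muscle, differed by -0.62 (SE 0.27, adjusted p = 0.21), or -0.34 without the esophagus array of mouse 4. Acsl4, which prefers arachidonate, differed by -0.15, and Acot2, a mitochondrial acyl-CoA thioesterase, by 0.26 (95% interval -0.26 to 0.77). The Acot2 probe was well above background on 2 of 3 esophagus arrays, and its close copy Acot1 could share its signal.

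Of the 4 carnitine shuttle genes, the palmitoyltransferases Cpt1a and Cpt2 were higher in the stomach, beside 6.22% of all probes. Slc25a20 did not pass, and no array read Crat well above background. Cpt1a, the outer-membrane transferase that limits entry of long chains and is read here at chr19:3385374-3385433 (probe positions are in mm9), had values of 11.39, 11.38 and 10.95 in the stomach and 9.92, 10.37 and 9.90 in the esophagus, again in the order of mice 1, 2 and 4. The groups were apart by more than the spread in either, and the difference was -1.18 (SE 0.20, 2.26-fold, adjusted p = 0.0072). A dimmer second Cpt1a probe differed by -0.68 (adjusted p = 0.32), and with the probes averaged the gene was not called (adjusted p = 0.062).

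Cpt2 (chr4:107576591-107576650) had values of 12.31, 12.20 and 12.35 in the stomach and 11.61, 11.31 and 11.55 in the esophagus. All stomach values were above all esophagus values, with a difference of -0.80 (SE 0.15, 1.74-fold, adjusted p = 0.011), and without the stomach array of mouse 1 the adjusted p was 0.057. The other, dimmer Cpt2 probe differed by -0.28 (adjusted p = 0.42). Slc25a20, the carrier that exchanges acylcarnitine for carnitine across the inner membrane, had values of 8.26, 8.48 and 8.04 in the stomach and 8.89, 8.07 and 8.16 in the esophagus. These overlapped, and the difference was 0.11 (95% interval -0.46 to 0.69, adjusted p = 0.85). Crat read 5.03, 5.36 and 4.98 in the stomach and 4.86, 4.99 and 4.80 in the esophagus, all not well above background, so no fold is given.

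Of the 5 acyl-CoA dehydrogenases, which take the first electrons from the chain, Acadm and Acadl were higher in the stomach. The stomach was higher for 6.22% of all probes and 10.6% of bright gene probes. Acadm, the medium-chain enzyme (chr3:153585670-153585729), had values of 12.70, 12.66 and 12.52 in the stomach and 11.30, 11.66 and 11.94 in the esophagus. The groups did not overlap and differed by -0.99 (SE 0.19, 1.99-fold, adjusted p = 0.013), although the adjusted p was 0.067 without the stomach array of mouse 1 and 0.061 without that of mouse 2.

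Acadl, the long-chain enzyme (chr1:66877673-66877732), read 12.49, 12.35 and 12.37 in the stomach and 12.02, 11.21 and 11.01 in the esophagus. Mouse 1 had the highest esophagus value, below all stomach values, and the difference was -0.99 (SE 0.26, 1.99-fold, adjusted p = 0.047). The call was lost when any array other than the esophagus array of mouse 1 was left out, at adjusted p values of 0.086 to 0.17. Acads, the short-chain enzyme, differed by -0.45 (SE 0.22, adjusted p = 0.27), Acadvl, the very-long-chain enzyme, by -0.29, and Acadsb, which acts on branched short chains, by -0.12.

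The electron transfer genes pass those electrons to ubiquinone. Etfa, the alpha subunit of the transfer flavoprotein, differed by -0.10 (95% interval -0.46 to 0.27), Etfb, its beta subunit, by -0.32 (-0.65 to 0.01) and the oxidoreductase Etfdh by -0.33 (-0.68 to 0.02). None of the 3 passed limma's test or reached an unadjusted p under 0.05, with adjusted p values of 0.79, 0.22 and 0.24. These are the brightest probes, and another Etfb probe, well above background on all 6 arrays, differed by -0.52 (unadjusted p = 0.032, adjusted p = 0.16) with no overlap, while its remaining probe differed by 0.14.

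In the lower part of the spiral, Acaa2 was the only called gene of 5, beside 6.22% of all probes and 10.6% of bright gene probes. Acaa2, the mitochondrial 3-ketoacyl-CoA thiolase, read 14.48, 14.45 and 14.88 in the stomach and 13.39, 13.86 and 13.83 in the esophagus. The stomach values were all above the esophagus values, and the difference was -0.91 (SE 0.20, 1.88-fold, adjusted p = 0.022). It was not called without the stomach array of mouse 1 (adjusted p = 0.065), that of mouse 2 (0.056) or the esophagus array of mouse 1 (0.050).

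Echs1, the short-chain enoyl-CoA hydratase, read 13.89, 13.85 and 14.66 in the stomach and 13.12, 13.18 and 13.45 in the esophagus. Its groups did not overlap, but the difference of -0.89 (SE 0.24) missed the threshold at an adjusted p of 0.054. Echs1 was called under 4 of 13 distinct alternatives, at an adjusted p of 0.034 with the mouse as a replicate block. Trended and robust variances gave 0.035, the filter on dim probes 0.042 and normexp with an offset of 16 on mean signals 0.044. At the 75th percentile scaling the difference was -0.59 (adjusted p = 0.40). Hadh, the medium- and short-chain hydroxyacyl-CoA dehydrogenase, differed by -0.59 (SE 0.20, adjusted p = 0.10) and was lower in the esophagus of all 3 mice. Hadha and Hadhb, the subunits of the trifunctional protein that carries out the last 3 steps on long chains, differed by -0.19 (95% interval -0.61 to 0.23) and -0.15 (-0.49 to 0.18).

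The 2 largest differences were those of Eci1 and Decr1, among the enzymes for unsaturated chains. Of those 4 enzymes, 3 were higher in the stomach, beside 6.22% of all probes and 10.6% of bright gene probes. Eci1, which moves double bonds into the position the spiral can use (chr17:24574515-24575912), read 11.91, 12.34 and 12.08 in the stomach and 8.19, 8.80 and 10.32 in the esophagus. Every stomach value was above every esophagus value, and the esophagus of mouse 4 stood above those of mice 1 and 2. The difference was -3.01 (SE 0.48, 8.07-fold, adjusted p = 0.0054). It was -3.62 without the esophagus array of mouse 4, the lone array on its slide, and -2.56 without that of mouse 1, and it passed the test without any single array.

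Decr1, the mitochondrial 2,4-dienoyl-CoA reductase (chr4:15846075-15846134), read 12.03, 11.97 and 11.60 in the stomach and 9.42, 9.64 and 10.09 in the esophagus. The gap between the groups exceeded the spread within each, with a difference of -2.15 (SE 0.21, 4.44-fold, adjusted p = 0.00045). A second Decr1 probe, dimmer and well above background on 2 of 3 esophagus arrays, also passed, at -1.44 (SE 0.19, adjusted p = 0.0020).

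Ech1, which shifts conjugated double bonds (chr7:29616256-29616416), read 11.84, 11.90 and 11.18 in the stomach and 10.43, 10.14 and 10.11 in the esophagus. Mouse 4 had the lowest stomach value, still above all esophagus values, and the difference was -1.41 (SE 0.22, 2.66-fold, adjusted p = 0.0052). Eci2, an isomerase found in peroxisomes and mitochondria, overlapped between the groups, with a difference of -0.26 (95% interval -0.97 to 0.45). That probe lies at chr13:35097340-35097399, and a dimmer Eci2 probe, at chr13:35069638-35069697, is assigned to a different transcript. The dimmer probe had all stomach values above the esophagus values, with a difference of -0.41 (limma's unadjusted p = 0.036, adjusted p = 0.17).

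Among the 3 peroxisomal members, Ehhadh and Acaa1b were higher in the stomach, beside 6.22% of all probes and 10.6% of bright gene probes. Ehhadh, the bifunctional hydratase and dehydrogenase (chr16:21761914-21761973), read 9.67, 9.46 and 10.19 in the stomach and 7.51, 7.82 and 8.18 in the esophagus. The groups were well apart, and the difference was -1.94 (SE 0.25, 3.83-fold, adjusted p = 0.0016), with values of -2.15, -1.65 and -2.01 within mice 1, 2 and 4.

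Acaa1b, a peroxisomal thiolase (chr9:119057326-119057385), read 10.58, 10.92 and 10.21 in the stomach and 8.99, 9.51 and 9.14 in the esophagus. No values overlapped, and the difference was -1.36 (SE 0.23, 2.56-fold, adjusted p = 0.0065). Its copy Acaa1a read 14.85, 14.71 and 13.91 in the stomach and 13.78, 14.23 and 14.01 in the esophagus. The stomach of mouse 4 fell within the esophagus values, and the difference was -0.48 (SE 0.27, adjusted p = 0.34), or -0.77 (adjusted p = 0.042) without that array. The thiolase copies are close in sequence and each probe may take signal from the other, and whether their differences differ was not tested.

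**Figure D2:**
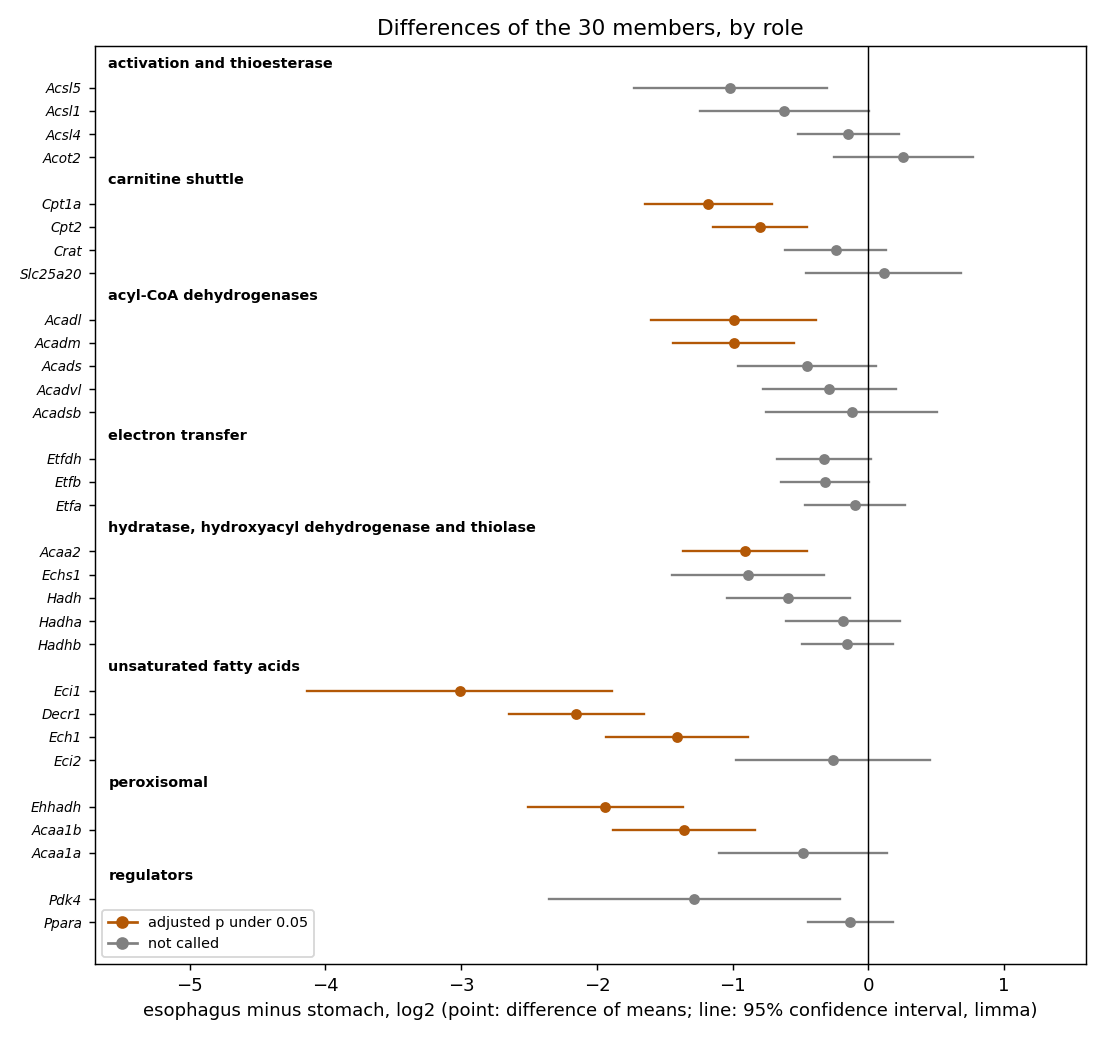
Difference of the 30 members (x axis, esophagus minus stomach on the log2 scale, with 95% confidence intervals from limma), grouped by role, with called members in orange. Of the 30 points, 28 lie below 0, and Eci1 (-3.01), Decr1 (-2.15) and Ehhadh (-1.94) lie farthest from it.

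Neither regulator among the members passed the test. Ppara, the nuclear receptor that drives oxidation genes in liver, read 6.99, 7.09 and 6.96 in the stomach and 6.84, 6.93 and 6.87 in the esophagus. These values lay close together, with a difference of -0.13 (95% interval -0.44 to 0.18, adjusted p = 0.64), and the other Ppara probes differed by 0.45 and 0.36 in the opposite direction without passing. Pdk4, the kinase that shuts off pyruvate dehydrogenase when fat is burned, read 7.22, 6.35 and 5.44 in the stomach and 4.88, 5.70 and 4.59 in the esophagus. The stomach of mouse 4, harvested on day 7, was below the esophagus of mouse 2, and the difference was -1.28 (SE 0.46, adjusted p = 0.13), or -1.73 (adjusted p = 0.030) without that array. The Pdk4 probe was well above background on 1 of 3 esophagus arrays, and its difference was -2.75 at the 75th percentile scaling, where it did not pass either.

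Of 11 genes of ketone bodies, 2 (18.2%) were higher in stomach organoids, 1 (9.09%) was higher in esophageal organoids and 8 did not pass, beside 10.6% and 11.1% of bright gene probes. The median difference was -0.16. Bdh1, which interconverts acetoacetate and 3-hydroxybutyrate, was higher in the esophagus, with 12.04, 12.28 and 12.74 in the stomach and 13.91, 13.79 and 13.85 in the esophagus. Every esophagus value was above every stomach value, a difference of 1.49 (SE 0.20, adjusted p = 0.0021).

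Bdh2, a cytosolic dehydrogenase, differed by -1.07 (adjusted p = 0.040) and the monocarboxylate transporter Slc16a7 by -1.35 (adjusted p = 0.039). The Bdh2 probe was well above background on 1 of 3 esophagus arrays, and its difference was -2.93 (adjusted p = 0.014) at the 75th percentile scaling. Bdh2 was lost without any array other than the esophagus array of mouse 2 (adjusted p 0.090 to 0.11) and Slc16a7 without any other than the stomach array of mouse 4 (0.070 to 0.15), and Slc16a7 also at the 75th percentile scaling (0.067). Bdh2 was also not called with the mouse as a replicate block (adjusted p = 0.069). Oxct1, the transferase that lets tissues use ketone bodies, differed by 1.07 (SE 0.41, adjusted p = 0.15, and 0.037 with the mouse as a replicate block). It was called as well without the stomach array of mouse 4 (1.44, adjusted p = 0.047) or the esophagus array of mouse 1 (1.45, adjusted p = 0.044).

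Aacs, which activates acetoacetate for lipid synthesis, differed by 0.87 (adjusted p = 0.19), or 1.28 (adjusted p = 0.018) without the esophagus array of mouse 1. Acat1, the mitochondrial acetoacetyl-CoA thiolase, differed by -0.46 (adjusted p = 0.38), or -0.77 (adjusted p = 0.043) without the esophagus array of mouse 4. Hmgcll1, a lyase outside mitochondria, differed by 0.17, and the transporters Slc16a1 and Slc16a6 by -0.23 and -0.06. Oxct2b differed by -0.63, and no array read the probe of the near-identical Oxct2a well above background.

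Within the PPAR family and its partners, large differences were seen in Pparg and Ppargc1a. Of 10 genes, 2 (20%, beside 10.6% of bright gene probes) were higher in stomach organoids and the other 8 did not pass limma's test or reach an unadjusted p under 0.05. Pparg, the receptor known from fat cells, read 13.59, 13.30 and 14.51 in the stomach and 10.13, 8.85 and 8.80 in the esophagus. The groups did not overlap and differed by -4.54 (SE 0.43, adjusted p = 0.00033). Ppargc1a, the coactivator of mitochondrial gene expression, read 11.19, 10.83 and 10.99 in the stomach and 5.25, 4.72 and 4.99 in the esophagus. None of the esophagus arrays read it well above background, so the stomach level was at least 58.9-fold higher (adjusted p = 7.6e-07), counted against the lowest signal well above background on each array.

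Ppard, the broadly expressed PPAR, differed by 0.64 (adjusted p = 0.31), or 1.02 (adjusted p = 0.021) without the stomach array of mouse 4. The retinoid X receptors Rxra, Rxrb and Rxrg differed by 0.58, 0.02 and 0.16. Esrra, the estrogen-related receptor that works with PGC-1, differed by -0.06, Ppargc1b by 0.07, the corepressor Ncor1 by 0.03 and the Mediator subunit Med1 by -0.34, and none of these 7 passed.

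**Figure D3:**
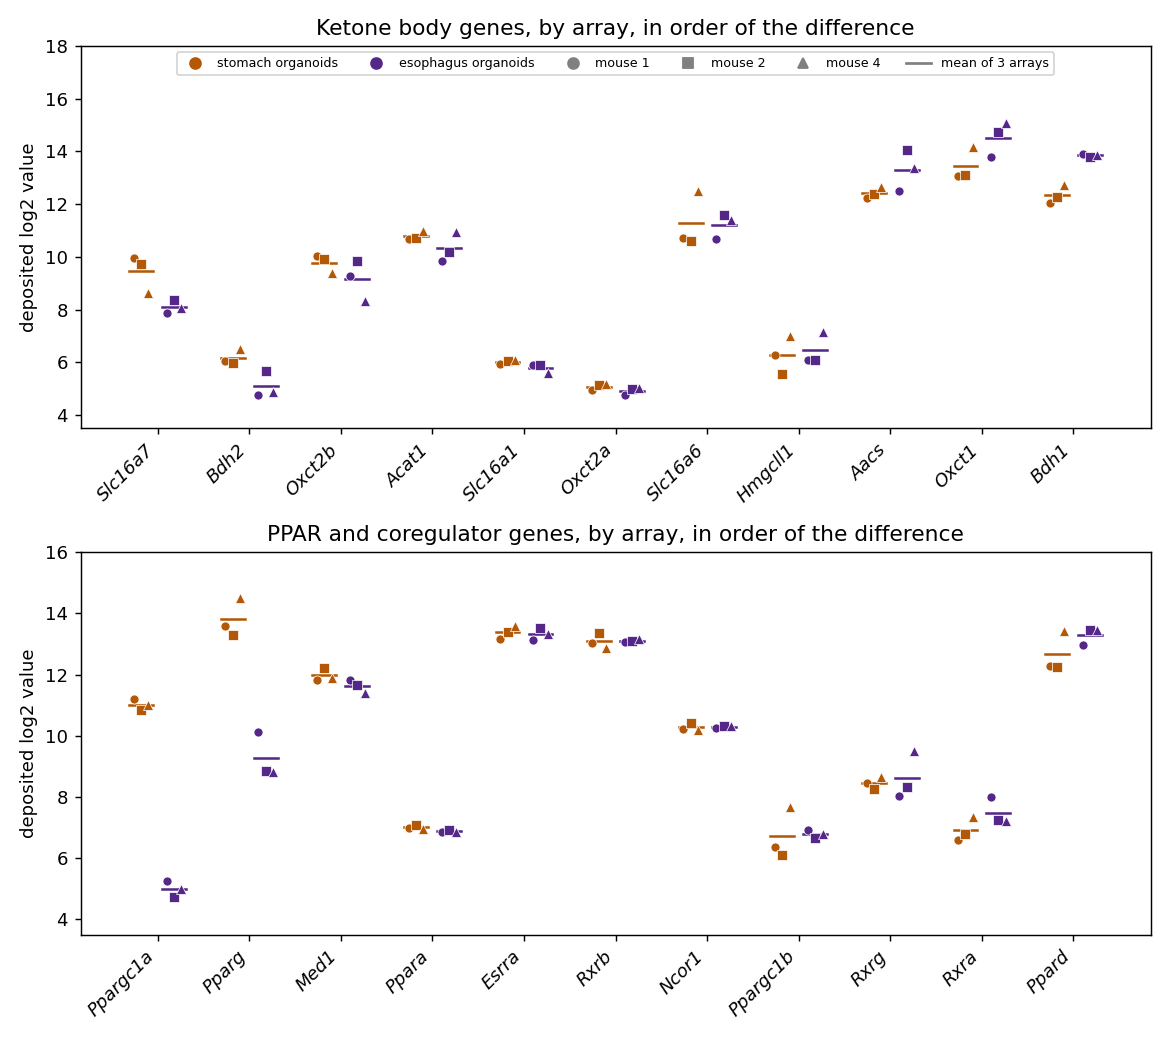
Deposited log2 values (y axis) of the 11 ketone body genes (top) and of Ppara with 10 PPAR family and coregulator genes (bottom), by array, with genes in order of the difference. Bdh1 and Slc16a7 separate the tissues in opposite directions. Ppargc1a and Pparg are higher in the stomach, and the 6 values of the brightest Ppara probe lie between 6.84 and 7.09.

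Of 12 known PPAR targets outside oxidation, 6 (50%) were higher in stomach organoids and 1 (8.33%) was higher in esophageal organoids. The shares were 6.22% and 5.94% of all probes, and 10.6% and 11.1% of bright gene probes. Only 3 of the 12 were well above background on all 6 arrays, and the median difference was -1.12. Vnn1, a pantetheinase, read 12.85, 12.53 and 12.03 in the stomach and 6.01, 5.37 and 4.93 in the esophagus, where it was well above background on 1 array. The difference was -7.03 (SE 0.31, adjusted p = 5.1e-06), or -8.76 at the 75th percentile scaling. Angptl4, the secreted inhibitor of lipoprotein lipase, differed by -3.22 (SE 0.49, adjusted p = 0.0040), and Plin5, a lipid droplet protein of oxidative tissues, by -3.53 (SE 0.28, adjusted p = 0.00012), with its probe well above background on 1 of 3 esophagus arrays and a difference of -4.94 at that scaling. Cidec, a lipid droplet protein, had a stomach level at least 13.3-fold higher (adjusted p = 5.4e-05), since its probe was not well above background in the esophagus.

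The droplet protein Plin4 was at least 2.23-fold higher by the same bound (adjusted p = 0.040), and the mitochondrial carrier Ucp3 differed by -1.11 (adjusted p = 0.022). Plin4 lost its call without any array other than the stomach array of mouse 4 (adjusted p 0.060 to 0.16). Ucp3 lost its call without the stomach array of mouse 2 or the esophagus array of mouse 1 or 2 (0.056 to 0.094) and at the 75th percentile scaling (0.19). Fgf21, a hormone induced in fasting liver, was higher in the esophagus, with 5.36, 4.75 and 5.71 in the stomach and 7.54, 7.73 and 6.24 in the esophagus. That difference was 1.90 (SE 0.41, adjusted p = 0.022), or 3.18 at the 75th percentile scaling, and the adjusted p was 0.052 with the mouse as a replicate block and 0.059 to 0.096 without an array of mouse 1 or 2 of either tissue.

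Plin2, the droplet coat of most cells, differed by -1.13 (adjusted p = 0.37), or -1.96 (adjusted p = 0.0083) without the esophagus array of mouse 1, and ranged down to -0.43 over the alternatives. Cyp4a10, a fatty acid omega-hydroxylase, differed by 0.16, and Creb3l3, a liver transcription factor read well above background by 1 array of each tissue, by 0.18. Neither passed, and no array read the omega-hydroxylases Cyp4a12a and Cyp4a14 well above background.

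Peroxisomal genes outside the 30 were higher in the stomach for 8 of 16 (50%), and 1 (6.25%) was higher in the esophagus, with a median of -0.68. The shares of bright gene probes were 10.6% and 11.1%. Acox2, an oxidase of branched chains and bile acid precursors, differed by -3.84 (SE 0.82, adjusted p = 0.021), with esophagus values of 7.56, 9.70 and 5.82 spread more widely than those of the stomach. The difference was -4.84 without the esophagus array of mouse 2 and -2.91 without that of mouse 4. Its adjusted p was 0.083 without the stomach array of mouse 1, 0.086 without that of mouse 2 and 0.050 without the esophagus array of mouse 1. Phyh, which starts the breakdown of phytanic acid, read 13.40, 13.28 and 13.15 in the stomach and 11.55, 11.32 and 10.94 in the esophagus (adjusted p = 0.00033). Abcd3, an ATP-driven transporter of the peroxisomal membrane, differed by -1.64 (SE 0.18, adjusted p = 0.00065).

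Of 26 other genes of fatty acid oxidation and its inputs, 9 (34.6%) were more abundant in stomach organoids and 2 (7.69%) in esophageal organoids, against 10.6% and 11.1% of bright gene probes, with a median of -0.45. Acss1, the mitochondrial acetyl-CoA synthetase, read 13.71, 13.71 and 13.56 in the stomach and between 6.94 and 7.60 in the esophagus, a difference of -6.48 (SE 0.20, adjusted p = 7.9e-07). Acsl3, a synthetase of lipid droplets and the endoplasmic reticulum, differed by -1.50 (adjusted p = 0.011, and 0.059 without the stomach array of mouse 1). Acad12, an acyl-CoA dehydrogenase family member, differed by -1.45 (adjusted p = 0.028). Its call was lost with the mouse as a replicate block (adjusted p = 0.059) and without an array of mouse 1 or 2 of either tissue (0.053 to 0.12).

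Other mitochondrial genes were read from separate lists. Of 15 genes that mark mitochondrial mass, among them import subunits and matrix chaperones, 1 was higher in the stomach, the outer membrane channel Vdac2 at -1.47 (adjusted p = 0.0057, and 0.076 when scaled to the 75th percentile), and the median was 0.23. That is 6.67% of the list, beside 6.22% of all probes and 10.6% of bright gene probes. The summed level of that list on the log2 scale ran from 17.56 to 18.06 in the stomach and from 17.54 to 17.90 in the esophagus. Of 17 citric acid cycle genes, 2 were higher in the stomach, Sdhd at -0.93 (adjusted p = 0.018) and Suclg1 at -0.83 (adjusted p = 0.022), with a median of -0.41. That is 11.8% of the list, near the 10.6% of bright gene probes. Both lost their calls when scaled to the 75th percentile (adjusted p 0.40 and 0.44). Sdhd lost its call without the stomach array of mouse 1 or 2 or the esophagus array of mouse 2 (0.068 to 0.075), and Suclg1 without any array other than the esophagus array of mouse 4 (0.052 to 0.083). Among the other pyruvate dehydrogenase kinases, Pdk2 differed by -3.36 on the log2 scale (SE 0.35, adjusted p = 0.00057), and Pdk1 and Pdk3 differed by -0.03 and 0.88 without passing. Pdk3 was called with the mouse as a replicate block (adjusted p = 0.044, against 0.22 without it).

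**Figure D4:**
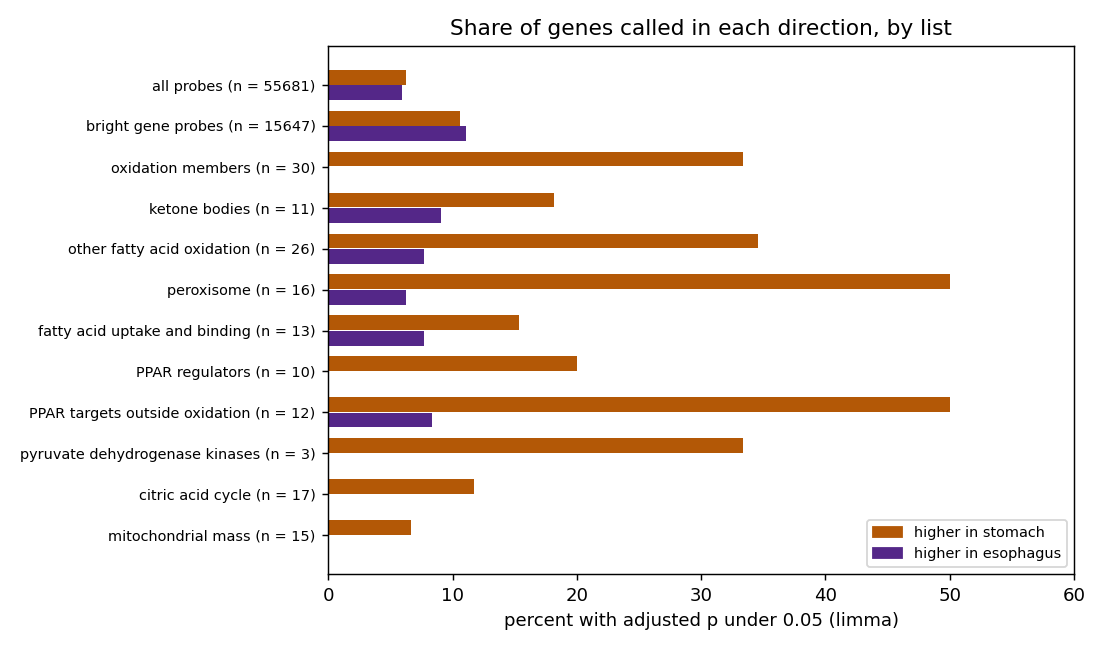
Percent of genes in each list (x axis, from 0) with an adjusted p under 0.05, higher in the stomach (orange) or in the esophagus (purple), with the number of genes in brackets and all probes and bright gene probes as background. Of the 30 oxidation members, 33.3% were higher in the stomach, beside 6.22% of all probes and 10.6% of bright gene probes.

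Markers of other cells were read beside these genes. Parietal cells of the corpus are rich in mitochondria. The list used for them held 8 genes on the array, 1 of them well above background on all 6 arrays. Of the 8, 4 were higher in the stomach, beside 6.22% of all probes and 10.6% of bright gene probes. The summed level was 13.90 to 15.03 in the stomach and 8.08 to 8.71 in the esophagus. One of the 4, Gif, the intrinsic factor, is made by chief cells in the mouse, and it read 13.68, 14.11 and 11.31 in the stomach, at least 270.2-fold above the esophagus (adjusted p = 9.4e-05). Of the 7 genes left without Gif, a choice made after seeing the data, 3 were higher in the stomach, beside the same shares of probes. Their summed level, in which Kcnq1 was the brightest, ran from 13.64 to 13.95 in the stomach and from 7.94 to 8.63 in the esophagus. The potassium channel gene Kcnq1 differed by -7.78 (adjusted p = 3.7e-07), and the water channel gene Aqp4 by -5.12 (adjusted p = 2.2e-05), with its probe well above background on 1 of 3 esophagus arrays. The proton pump gene Atp4a read 5.76, 6.01 and 6.42 in the stomach, well above background on those 3 arrays and on no esophagus array (adjusted p = 0.018). No array read the other pump gene, Atp4b, or the anion exchanger gene Slc26a7 well above background, 1 stomach array read the potassium channel subunit gene Kcne2 so, and neither these nor Ckb, a creatine kinase, passed. None of 8 fibroblast, 9 skeletal muscle, 6 smooth muscle, 4 endothelial and 6 immune genes passed limma's test in either direction, and each of these lists held 1 gene with an unadjusted p under 0.05. The summed level of the skeletal muscle genes, which mark the wall of the mouse esophagus, ran from 8.38 to 8.58 in the stomach and from 8.54 to 8.75 in the esophagus. For the immune genes it ran from 11.35 to 12.53 in the stomach and from 12.00 to 14.80 in the esophagus. Cd68, an immune gene, read 11.04, 11.22 and 12.36 in the stomach and 14.77, 12.94 and 11.80 in the esophagus. These values overlapped, with a difference of 1.63 (adjusted p = 0.21). Of 7 adipocyte genes, 1 (Cidec) was higher in the stomach, beside 6.22% of all probes and 10.6% of bright gene probes. Adipoq was read well above background by no array. The summed level of the adipocyte genes overlapped, from 9.12 to 10.82 in the stomach and from 8.40 to 11.85 in the esophagus. The part of parietal or chief cells in the differences of the oxidation genes was not tested.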

How the data were processed

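RNA of 6 organoid cultures was hybridized in a single color to Agilent SurePrint G3 Mouse 8x60K arrays, read with Feature Extraction 11.5.1.1. The authors deposited log2 values, which they background-corrected and quantile-normalized per their methods; normexp with an offset of 15 on median signals gave the deposited values to a median of 0.00433. They also deposited scanner intensity per spot, used for detection flags and for alternatives. Each deposited column matched its own array's scanner signal (r of at least 0.9988). Outlier spots, 2029 in all, are empty in the deposited values and were left out.

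Spots were averaged per probe, control spots removed, and 55681 probes fitted with limma 3.58.1 (R 4.3.3; lmFit, eBayes) on the 6 arrays with no block and p-values adjusted over all of them by Benjamini and Hochberg (threshold 0.05). A gene was read from its brightest probe by the mean over 6 arrays. The procedure was tested on simulated data. Replicates are separate mice, and same-numbered arrays share a mouse per the labels, yet their deviations correlated by only 0.02, 0.01 and -0.01, against -0.07 to 0.04 between mice. An exact permutation test of 3 against 3 arrays cannot go below 0.1, so none was used. The precision is limited by the number of arrays. Alternatives were other background corrections and scalings, a filter on dim probes, averaging probes, robust variances, the mouse or slide as a block, other thresholds and leaving out each array.

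A probe that no array of a tissue read well above background gives a bound: the mean of the brighter tissue against, per array, the higher of the lowest signal well above background and the probe's own. Named genes were all 30 members, every gene of the ketone body, PPAR regulator and PPAR target lists, and at most 3 called genes of largest difference in the other lists, from those well above background on all 6 arrays. Lipe, Acacb, Mlycd, Crot, Acot9, Pdk1 and Pdk3 fall outside that rule and were named after their values were seen, as were single marker genes. A few genes of these lists are not reported here and enter no list count. Members and lists were chosen with earlier results of these data known. Promoters come from RefSeq (GRCm38.p6). Probe positions are in mm9, per the file headers.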

Additional observations from a re-analysis of the deposited data

How the results depend on the processing

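No member was called higher in the esophagus under any alternative, including other thresholds. The count higher in the stomach was 10 and stayed between 9 and 14 under the other settings, apart from 5 with processed signals scaled to the 75th percentile and a range of 6 to 11 when single arrays were left out. The median difference of the members was -0.54, against -0.44 with that scaling, and -0.62 to -0.42 with single arrays left out, where the esophagus array of mouse 1 gave the smallest size. No call of a member reversed, 18 member calls were lost and 9 gained over 13 distinct alternatives (the slide as a block gives the same fit as leaving out the esophagus array of mouse 4, alone on its slide, and is counted once), and 7 uncalled members changed sign under at least 1. With the mouse as a replicate block, 12 members were called, Echs1 and Acsl5 being added. The wider lists held 33 genes higher in the stomach and 6 higher in the esophagus, and 21 and 6 at the 75th percentile. Leaving out single arrays gave 20 to 31 and 2 to 7, lowest without the stomach array of mouse 2 for the former and of mouse 1 or 2 for the latter. Calls over all probes shifted as well. They were 3463 (6.22%) and 3307 (5.94%) in the main setting and 3375 and 2668 at the 75th percentile. With single arrays left out they ran from 2297 to 3915 and from 1794 to 3500. The cause of these shifts was not tested. With 3 mice per group, differences near 1 on the log2 scale lie at the edge of what passes, and those of Crat and other probes near background are limited by signal.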

Other observations

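Of 13 genes that release and take up fatty acids, 2 (15.4%) were higher in stomach organoids, beside 10.6% of bright gene probes, and 1 (7.69%) was higher in esophageal organoids, beside 11.1%. Their median difference was -0.16. Pnpla2, the lipase that opens triglyceride breakdown in lipid droplets, read 13.75, 13.35 and 13.33 in the stomach and 11.95, 12.03 and 11.89 in the esophagus. The groups did not overlap and differed by -1.52 (SE 0.16, adjusted p = 0.00069). Lipe, hormone-sensitive lipase, had a stomach level at least 34.1-fold higher (adjusted p = 1.1e-05), as its probe was not well above background in the esophagus, and it was named after its values were seen. Lpl, which frees fatty acids from lipoproteins, was higher in the esophagus, with 5.81, 5.76 and 6.05 in the stomach and 7.35, 6.82 and 6.78 in the esophagus (difference 1.11, SE 0.20, adjusted p = 0.0089).

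Also named after their values were seen, genes around malonyl-CoA, the inhibitor of CPT1, were both higher in the stomach. Acacb, the acetyl-CoA carboxylase at the mitochondrial surface that makes it, read 9.84, 9.83 and 10.67 in the stomach and 6.08, 5.86 and 5.46 in the esophagus, a difference of -4.31 (SE 0.27, adjusted p = 3.6e-05), with 2 of 3 esophagus arrays well above background and a difference of -5.42 at the 75th percentile scaling. Mlycd, the decarboxylase that removes it, read 11.84, 11.66 and 11.45 in the stomach and 10.51, 10.12 and 10.69 in the esophagus, a difference of -1.21 (SE 0.20, adjusted p = 0.0057, and 0.10 when scaled to the 75th percentile). Crot, the peroxisomal carnitine octanoyltransferase, was among the 2 genes of the wider oxidation list higher in the esophagus, at 1.27 (SE 0.31, adjusted p = 0.035), beside Acot9, a mitochondrial thioesterase, at 1.41 (SE 0.34, adjusted p = 0.033), both also named after their values were seen. Crot lost its call without any stomach array or without the esophagus array of mouse 4 (adjusted p 0.053 to 0.13), and Acot9 without the stomach array of mouse 1 or 2 or the esophagus array of mouse 1 (0.050 to 0.13).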
